A study of Mus musculus with 6 samples.

Results

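The SR proteins, the heterogeneous nuclear ribonucleoproteins (hnRNPs) and the numbered RNA-binding motif (RBM) proteins are the main families of trans-acting splicing regulators. Their transcripts were followed in whole mouse lung after acute cold. Members were taken by gene symbol from the deposited expression table: Srsf followed by a digit, every Hnrnp gene, and Rbm followed by a digit, leaving out Rbm3. This gave 68 of 18174 genes, of which 11 are SR, 20 hnRNP and 37 RBM genes. Of the 68, 64 passed the filter on low reads and were tested. Srsf12, Rbm11, Rbm44 and Rbm8a2 did not pass, and their values are given with their families.

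The 6 libraries came from lungs of wild type male C57BL/6J mice, an inbred laboratory strain. The cold group of 3 was held at 4 °C for 6 h, and the room temperature group of 3 was housed without cold exposure. Neither the ages nor whether each library came from its own animal were stated in the sources used here, so p-values measure the spread between these libraries. Whole lung holds many cell types, and a lower transcript level can mean fewer cells of a type or less RNA per cell, which bulk samples cannot tell apart.

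SR proteins carry RNA recognition motifs and a tail rich in arginine and serine. They bind exonic enhancers and recruit the spliceosome, and SRPK and CLK kinases that phosphorylate the tail set where they are and how active they are. CLK kinases are known to become more active as temperature falls within the range of body temperature. The hnRNPs coat nascent transcripts and often act against SR proteins at the same exons. Many genes of these families limit their own expression through poison exons, whose inclusion sends the transcript to nonsense-mediated decay. The values here are given per gene and do not separate such isoforms. Whether reads in introns were counted is not stated.

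Levels are given as scaled RPKM: reads per kilobase of gene span, introns included, and per M (mega) reads, divided by a composition factor per library (1.12 to 1.13 in cold, 0.856 to 0.953 at room temperature). Low values step by what a read is worth, and these steps gave depths of 32.7 to 35.1 M reads in the cold libraries and 39.8 to 48.7 M reads at room temperature. Each tested member was covered by 5.73 to 15795 reads per library. On the first principal component (90.2% of the variance) the cold libraries lay at 69.3 to 77.9, against −81.3 and −94.2 for room temperature replicates 1 and 2 and −43.96 for replicate 3, which stood apart. Cell type markers moved with the groups. All 15 endothelial markers rose, and their summed level was 342 to 381 scaled RPKM in cold against 8.10 to 84.9 at room temperature. All 12 tested ciliated, 10 club and secretory and 8 smooth muscle markers fell. Of 11 alveolar type 2 markers, which define lung tissue, 8 rose and 1 fell. Their sum was 2728 to 3689 scaled RPKM in cold and 694 to 1398 at room temperature, most of it in cold from the surfactant gene Sftpc. The surfactant genes Sftpa1 and Sftpb were not called (log2 change −0.12 and −0.079), and Cebpa fell (−1.11). Of 11 alveolar type 1 markers 8 rose and 2 fell. All 13 T, natural killer and B cell markers rose, and of 10 neutrophil markers 8 rose and 1 fell. Of 10 alveolar macrophage markers 7 rose and 3 fell, and of 10 fibroblast markers 4 rose and 4 fell. Of the markers of airway cartilage and upper airway, the 3 tested (Sox9, Krt5 and Krt4) fell. Col2a1, Acan and Comp of that list did not pass the filter on low reads and were not tested. The part of these shifts in the results below was not tested.

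Over all 15238 genes tested with limma (adjusted p under 0.05 after Benjamini-Hochberg adjustment), 70.5% were called, 35.5% higher and 35.0% lower in cold. Of the 64 members, 43 (67.2%) were called, a share near that background. By direction, 31 were higher (48.4%) and 12 lower (18.8%), with a median log2 change of 0.29 against 0.0032 for all genes tested. Of 10 SR genes tested 9 rose and 1 fell (median 0.69), of 20 hnRNP genes 7 rose and 5 fell (median 0.017), and of 34 RBM genes 15 rose and 6 fell (median 0.40).

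Scaled by library totals alone, as deposited, the median of all genes moved to 0.29, and 70.9% of all genes were called, 46.2% higher and 24.7% lower. The split of the members then was 43 higher and 9 lower. The SR split did not move (9 and 1), the hnRNP split became 13 and 3, and the RBM split 21 and 5. The changes that follow are relative to the median under composition scaling. Changes of at least 1 on the log2 scale were called higher in 13 and lower in 4 members, against 17.1% and 16.3% of all genes. In the authors' deposited table, 7 members passed a q value of 0.05 upward and 2 downward, where 12.7% and 12.0% of all its genes did. Those higher were Srsf5, Srsf11, Hnrnph1, Rbm12b1, Rbm12b2, Rbm33 and Rbm46, and those lower Rbm24 and Rbm11.

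**Figure D1:**
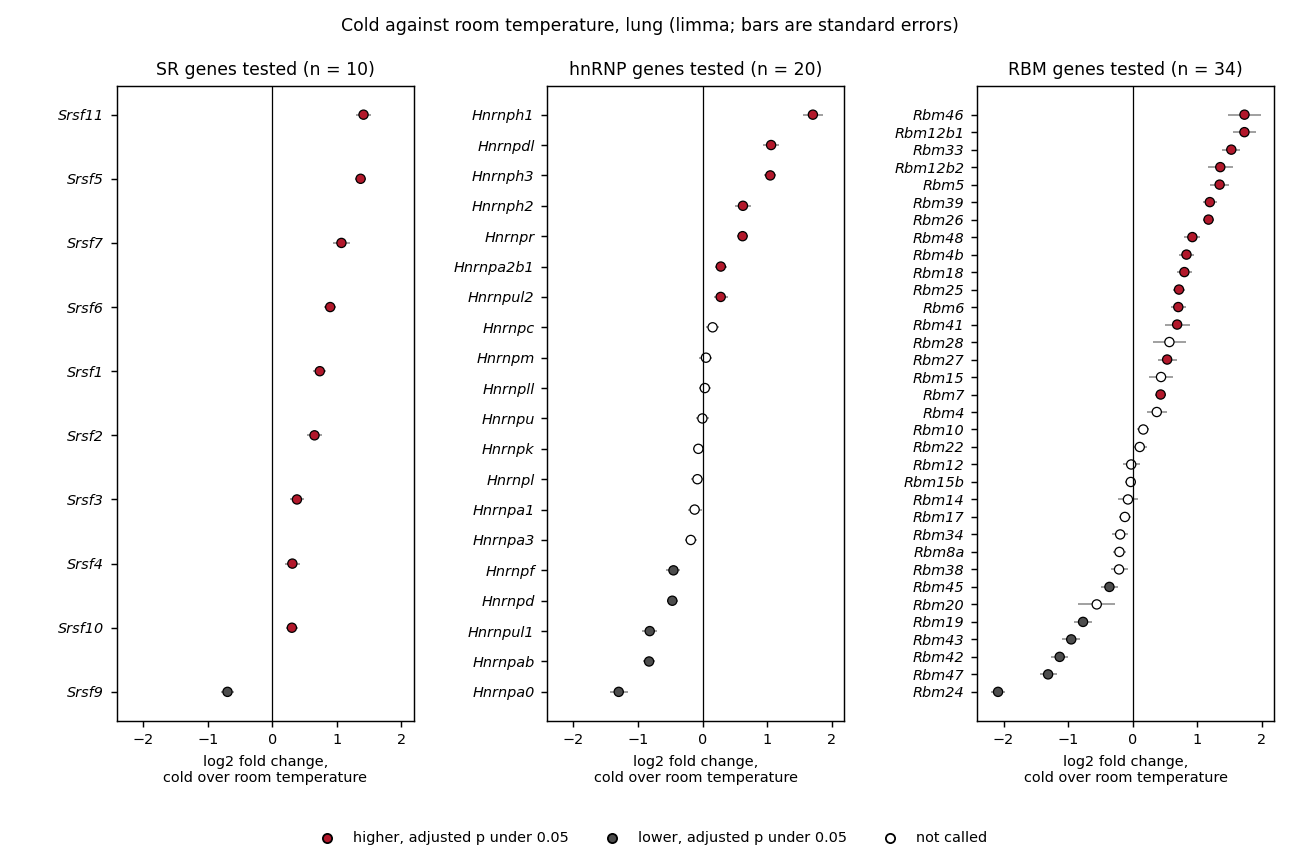
Log2 fold change of cold over room temperature for each of the 64 tested SR, hnRNP and RBM genes (x axis), with limma's standard error as a bar and filled points for genes called. In the SR panel 9 genes lie right of 0 and Srsf9 left of it, while hnRNP and RBM genes spread to both sides.

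The promoter windows of 4 members are shown because these genes carry the main contrasts: Srsf5 and Hnrnph1 rose, and Srsf9 and Hnrnpa0, which come from the same 2 families, fell. Each window runs from 250 bases before to 50 bases after the RefSeq start on GRCm38.p6, 5′ to 3′ on the gene's strand. Capitals mark TGACG, the core of the cyclic AMP response element, and CCAAT, on either strand.
Srsf5, chr12:80945249-80945548, plus strand: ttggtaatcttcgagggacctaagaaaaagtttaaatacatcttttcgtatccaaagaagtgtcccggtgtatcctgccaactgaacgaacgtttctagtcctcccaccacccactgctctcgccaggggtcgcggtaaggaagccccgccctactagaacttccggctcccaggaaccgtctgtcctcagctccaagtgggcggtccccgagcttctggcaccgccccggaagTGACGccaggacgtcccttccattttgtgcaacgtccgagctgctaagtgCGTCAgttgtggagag
Srsf9, chr5:115326927-115327226, plus strand: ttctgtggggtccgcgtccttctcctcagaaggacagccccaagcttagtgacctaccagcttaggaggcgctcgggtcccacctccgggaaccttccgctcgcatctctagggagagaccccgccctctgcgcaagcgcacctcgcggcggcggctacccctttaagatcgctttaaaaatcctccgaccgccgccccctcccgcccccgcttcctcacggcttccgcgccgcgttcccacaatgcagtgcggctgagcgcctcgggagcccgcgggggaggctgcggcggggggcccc
Hnrnph1, chr11:50376740-50377039, plus strand: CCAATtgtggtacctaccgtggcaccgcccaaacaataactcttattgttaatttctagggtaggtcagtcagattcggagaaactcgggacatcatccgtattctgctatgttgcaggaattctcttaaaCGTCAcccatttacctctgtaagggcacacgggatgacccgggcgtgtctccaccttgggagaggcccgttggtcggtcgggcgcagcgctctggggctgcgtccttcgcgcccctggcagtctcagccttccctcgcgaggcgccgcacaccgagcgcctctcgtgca
Hnrnpa0, chr13:58128507-58128806, minus strand: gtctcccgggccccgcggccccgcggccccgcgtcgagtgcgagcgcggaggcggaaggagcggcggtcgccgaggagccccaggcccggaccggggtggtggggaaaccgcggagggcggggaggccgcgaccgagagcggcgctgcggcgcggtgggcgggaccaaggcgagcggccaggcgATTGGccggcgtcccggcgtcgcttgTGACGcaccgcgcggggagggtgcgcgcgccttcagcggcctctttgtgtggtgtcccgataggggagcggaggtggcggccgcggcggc
RefSeq windows were found for 58 of the 68 members. TGACG, which is also part of the full element TGACGTCA, was present on either strand in 28 of the 58 (48.3%), in 15 of 27 members called higher, in 3 of 12 called lower and in 7 of 11 SR genes. It was present in 29.7% of the 11419 windows found for the 15238 genes tested. Where a gene had several windows, the one nearest its annotated start was taken for members and the first listed for the background. The shares of members and background thus rest on differently chosen windows. The full element was in 0 of 58 member windows and 3.07% of tested genes' windows, and CCAAT in 29 of 58 and 37.8%. A match describes the letters of the window and does not show binding.

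Of the 10 tested SR genes 9 rose, Srsf11 and Srsf5 by the most. Srsf5, which promotes exon inclusion and is a substrate of CLK kinases (chromosome 12, 80945504 to 80950507 in GENCODE M21 on GRCm38), stood at 68.1, 65.9 and 67.00 scaled RPKM in the cold libraries, against 24.8, 27.4 and 25.6 at room temperature (log2 change 1.37 ± 0.088 SE, limma adjusted p = 5.1e-05). Every cold library lay above every room temperature library. Srsf11, which binds together with other SR proteins at weak exons, had 5.40, 4.96 and 5.25 scaled RPKM in the cold libraries, against 1.70, 1.92 and 2.24 at room temperature (log2 change 1.41 ± 0.12 SE, limma adjusted p = 6.8e-05). Its groups did not overlap, and room temperature replicate 3 was the closest to cold. Srsf7, which also serves in mRNA export and polyadenylation site choice, had 10.6, 9.66 and 10.2 scaled RPKM in the cold libraries, against 4.45, 4.24 and 5.84 at room temperature (log2 change 1.07 ± 0.13 SE, limma adjusted p = 0.00029). Srsf6, a close relative of Srsf5, stood at 33.6, 31.9 and 30.3 scaled RPKM in the cold libraries, against 15.9, 17.2 and 18.3 at room temperature (log2 change 0.90 ± 0.095 SE, limma adjusted p = 0.00015). Both rose without overlap, and under upper-quartile scaling and the deposited scaling as well.

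The founding members Srsf1 and Srsf2 rose less. Srsf1, which also guides export and translation of its targets, had 58.5, 56.6 and 58.99 scaled RPKM in the cold libraries, against 35.2, 31.7 and 37.8 at room temperature (log2 change 0.74 ± 0.10 SE, limma adjusted p = 0.00045). Srsf2, a marker protein of nuclear speckles, had 46.3, 50.8 and 40.7 scaled RPKM in the cold libraries, against 27.9, 27.1 and 32.4 at room temperature (log2 change 0.65 ± 0.12 SE, limma adjusted p = 0.0018). The span of Srsf2 lies wholly within that of Mettl23 on the other strand, and the strand of the libraries is not stated, so reads of the 2 genes cannot be told apart. Together with Srsf5 these were the SR genes with the highest level per kilobase of span in both groups.

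Srsf3, Srsf10 and Srsf4 rose by 0.30 to 0.38 on the log2 scale. Srsf3, the smallest SR protein, had 9.41, 10.8 and 9.97 scaled RPKM in the cold libraries, against 7.21, 7.23 and 8.71 at room temperature (log2 change 0.38 ± 0.11 SE, limma adjusted p = 0.015). Srsf10, which becomes a general splicing repressor when dephosphorylated after heat shock, had 7.36, 7.01 and 8.05 scaled RPKM in the cold libraries, against 5.87, 6.19 and 6.06 at room temperature (log2 change 0.30 ± 0.091 SE, limma adjusted p = 0.019). Srsf4, an SR protein with a long tail, had 2.050, 1.91 and 1.69 scaled RPKM in the cold libraries, against 1.58, 1.36 and 1.603 at room temperature (log2 change 0.31 ± 0.11 SE, limma adjusted p = 0.039). Cold and room temperature libraries did not overlap for any of these 3 genes, yet their calls were the ones that some alternatives lost. Leaving out room temperature replicate 1 gave Srsf3, Srsf10 and Srsf4 limma adjusted p-values of 0.085, 0.10 and 0.081. Without room temperature replicate 2 Srsf3 had 0.055 and Srsf4 0.13, and Srsf4 was also not called without cold replicate 1 or 2 (0.10 and 0.083) or under upper-quartile scaling (0.068).

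Srsf9 was the exception. This short-tailed relative of Srsf1 (chromosome 5, 115327177 to 115333080 on GRCm38) had 4.01, 3.87 and 3.24 scaled RPKM in the cold libraries, against 5.94, 5.89 and 6.26 at room temperature (log2 change −0.69 ± 0.11 SE, limma adjusted p = 0.00081). All 3 cold libraries lay below the room temperature libraries, and the fall was called under all 15 alternatives run. Srsf12, a restricted relative of Srsf10, was listed at 0 to 0.0036 scaled RPKM in all libraries, at most 3.56 reads, and was not tested. Over all genes tested the 2 groups did not overlap, with cold above, for 38.4% of genes and, with cold below, for 37.8%, against 9 and 1 of the 10 SR genes.

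**Figure D2:**
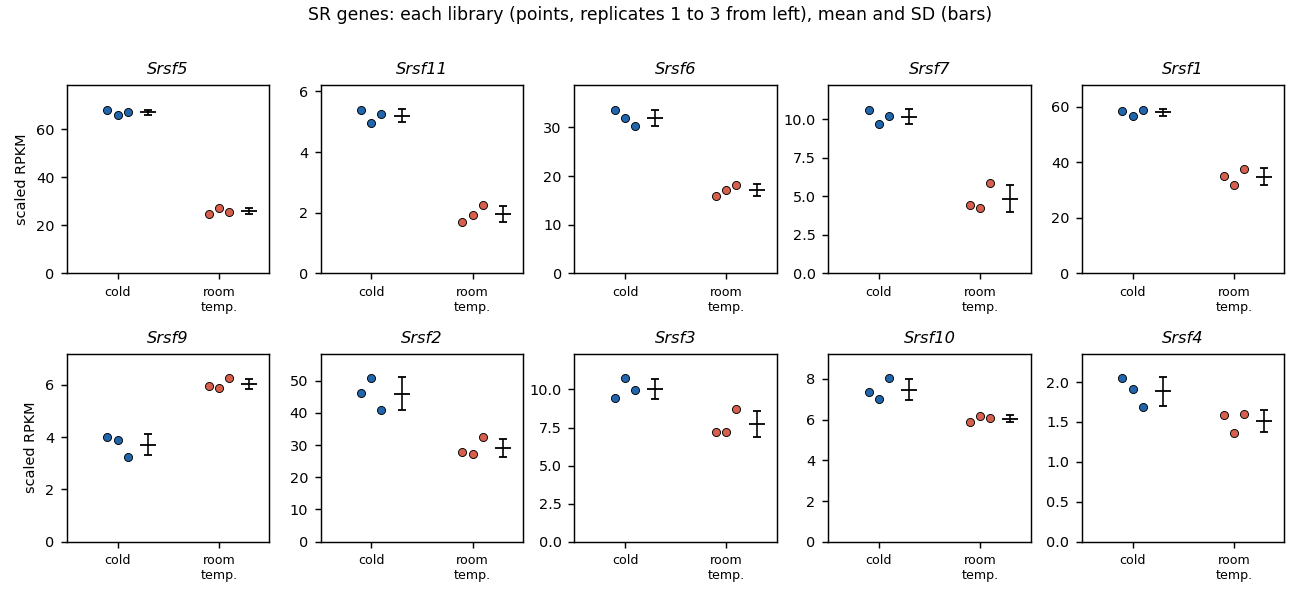
Scaled RPKM (y axis, from 0) of the 10 tested SR genes in each cold and room temperature library, with the mean and SD of the 3 libraries beside the points. In 9 panels every cold point lies above every room temperature point, and in the Srsf9 panel every cold point lies below.

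Summed over the 11 SR genes, the level per kilobase of span was 245, 243 and 235 scaled RPKM in the cold libraries, against 131, 130.2 and 145 at room temperature. The make-up of this pool can be read within each library, where the scaling cancels. Srsf5 made up 27.8% ± 0.691 in cold and 19.2% ± 1.68 at room temperature (mean ± SD, n = 3 libraries a group here and below), and Srsf11 2.16% ± 0.102 in cold and 1.44% ± 0.126 at room temperature. Srsf9 made up 1.53% ± 0.137 in cold and 4.47% ± 0.124 at room temperature, and Srsf3 4.16% ± 0.298 in cold and 5.70% ± 0.275 at room temperature. Srsf1 and Srsf6 shifted less, with 24.04% ± 0.925 in cold and 25.8% ± 1.33 at room temperature for Srsf1 and 13.2% ± 0.433 in cold and 12.7% ± 0.511 at room temperature for Srsf6. The groups did not overlap for Srsf5, Srsf11, Srsf9 and Srsf3, and overlapped for Srsf6. Shares depend on the length that divides the reads. Per kilobase of exon, a choice made after seeing the data, Srsf9 made up 4.01% ± 0.354 in cold and 11.1% ± 0.291 at room temperature, and Srsf11 4.90% ± 0.218 in cold and 3.10% ± 0.277 at room temperature.

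Of the 4 hnRNP genes of the F/H group, whose proteins bind runs of guanine, 3 rose and 1 fell. Of all genes tested, 35.5% rose and 35.0% fell. Hnrnph1 (chromosome 11, 50376990 to 50386528 on GRCm38) stood at 29.5, 29.6 and 30.9 scaled RPKM in the cold libraries, against 8.44, 7.77 and 11.6 at room temperature (log2 change 1.71 ± 0.15 SE, limma adjusted p = 8.1e-05). Hnrnph3 had 5.09, 4.72 and 5.30 scaled RPKM in the cold libraries, against 2.31, 2.37 and 2.52 at room temperature (log2 change 1.05 ± 0.092 SE, limma adjusted p = 7.8e-05), and its span is 26.7% covered by Rufy2 on the other strand. Hnrnph2, the X-linked copy of Hnrnph1, had 11.1, 10.5 and 12.8 scaled RPKM in the cold libraries, against 7.32, 6.67 and 8.27 at room temperature (log2 change 0.63 ± 0.12 SE, limma adjusted p = 0.0022). The 3 H genes rose without overlap of the groups, as 38.4% of all genes tested did with cold above. Room temperature replicate 3 was the library of its group closest to cold for each H gene. Hnrnpf, the remaining gene of the group, moved the other way at 4.06, 3.40 and 4.02 scaled RPKM in the cold libraries, against 5.16, 5.63 and 4.88 at room temperature (log2 change −0.45 ± 0.11 SE, limma adjusted p = 0.0069). Its fall was not called under the deposited scaling (log2 change −0.12, limma adjusted p = 0.31).

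In the A/B and D group 2 of 7 genes rose and 3 fell, and the 71.4% called is near the 70.5% of all genes. Hnrnpa0, a binder of AU-rich elements in stress-response mRNAs (chromosome 13, 58125879 to 58128556 on GRCm38), had 26.2, 30.1 and 21.05 scaled RPKM in the cold libraries, against 66.9, 60.3 and 62.2 at room temperature (log2 change −1.30 ± 0.14 SE, limma adjusted p = 0.00015). It had the highest level of all hnRNP genes at room temperature and in cold ranked behind Hnrnpa2b1, Hnrnph1 and Hnrnpdl by mean level per kilobase of span. Hnrnpab, which takes part in mRNA localization, had 15.5, 16.99 and 14.3 scaled RPKM in the cold libraries, against 27.9, 26.96 and 28.1 at room temperature (log2 change −0.83 ± 0.097 SE, limma adjusted p = 0.00023), with 65.1% of its span covered by Phykpl on the other strand. Hnrnpd, whose protein promotes decay of AU-rich mRNAs, had 1.75, 1.88 and 1.76 scaled RPKM in the cold libraries, against 2.57, 2.55 and 2.36 at room temperature (log2 change −0.47 ± 0.088 SE, limma adjusted p = 0.0021), and was not called under the deposited scaling (adjusted p = 0.17). Each of these falls had separated groups. Hnrnpdl, the close relative of Hnrnpd, rose instead, with 26.7, 30.01 and 26.3 scaled RPKM in the cold libraries, against 12.6, 15.4 and 11.8 at room temperature (log2 change 1.06 ± 0.12 SE, limma adjusted p = 0.00022).

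The genes of the core A and B proteins, abundant hnRNPs of most cells, moved by less. Hnrnpa2b1 had 42.6, 40.3 and 44.9 scaled RPKM in the cold libraries, against 35.4, 35.99 and 33.6 at room temperature (log2 change 0.28 ± 0.094 SE, limma adjusted p = 0.027). It was called with all 6 libraries, and lost the call in 5 of the 6 fits that leave out a library (adjusted p of 0.051 to 0.11). Hnrnpa3 and Hnrnpa1 were not called, at log2 changes of −0.18 and −0.12, which turned to 0.14 and 0.20 under the deposited scaling. Hnrnpa1 stood at 20.3, 23.1 and 23.3 scaled RPKM in the cold libraries, against 24.3, 26.4 and 21.9 at room temperature, with overlapping groups. Both genes have many processed pseudogenes, and the treatment of reads that fit several places is among the steps the labels leave out.

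Of the 9 remaining hnRNP genes 2 rose and 1 fell, against 35.5% and 35.0% of all genes. Hnrnpr, a relative of the translation regulator Syncrip, had 2.20, 2.10 and 2.36 scaled RPKM in the cold libraries, against 1.43, 1.48 and 1.41 at room temperature (log2 change 0.62 ± 0.088 SE, limma adjusted p = 0.00054). Hnrnpul1, which links transcripts to the DNA damage response, fell, with 1.62, 1.49 and 1.29 scaled RPKM in the cold libraries, against 2.81, 2.64 and 2.33 at room temperature (log2 change −0.82 ± 0.12 SE, limma adjusted p = 0.00061). The groups were separated for both. Hnrnpul2 had 7.74 ± 0.286 scaled RPKM in cold and 6.38 ± 0.720 at room temperature (mean ± SD, n = 3; log2 change 0.28 ± 0.11 SE, limma adjusted p = 0.047), a call lost under upper-quartile scaling (adjusted p = 0.093), with no filter (0.056) and in 5 of the 6 fits without a library. Hnrnpu, a chromatin-bound scaffold protein, had 17.96, 17.5 and 20.5 scaled RPKM in the cold libraries, against 18.8, 18.02 and 19.05 at room temperature, and Hnrnpk, the poly-cytosine binder, had 18.5 ± 0.388 scaled RPKM in cold and 19.4 ± 0.601 at room temperature (mean ± SD, n = 3). Hnrnpl, Hnrnpm, Hnrnpc and Hnrnpll were likewise not called, with log2 changes of −0.079 to 0.16. For these 6 genes the groups overlapped. The limma adjusted p lay between 0.21 and 0.99. Hnrnpu, Hnrnpk and Hnrnpl had negative changes that turned positive under the deposited scaling (0.25 to 0.32), where all 6 genes were called higher.

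**Figure D3:**
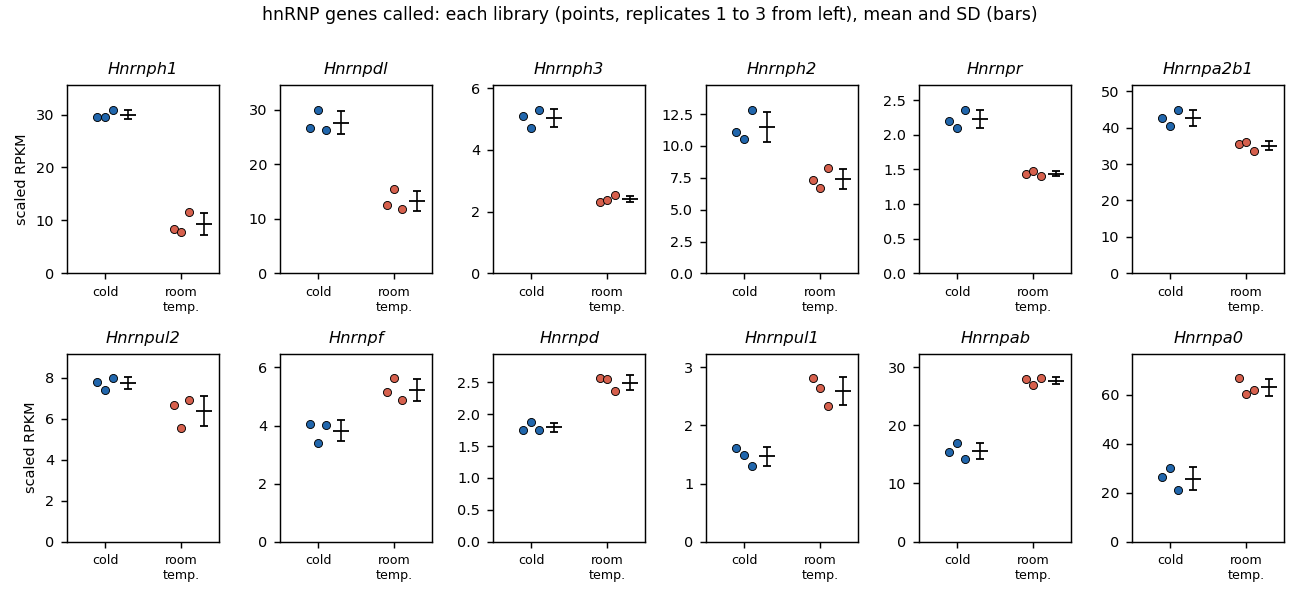
Scaled RPKM (y axis, from 0) of the 12 hnRNP genes called, in each cold and room temperature library, with the mean and SD beside the points, ordered from the largest rise (Hnrnph1) to the largest fall (Hnrnpa0). Cold points lie above room temperature points in 7 panels and below them in 5.

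Summed over the 20 hnRNP genes the level was 271, 279 and 277 scaled RPKM in the cold libraries, against 287, 283 and 279 at room temperature. Within this pool, where the scaling cancels, Hnrnpa0 made up 9.36% ± 1.64 in cold and 22.3% ± 0.980 at room temperature. Hnrnph1 made up 10.9% ± 0.266 in cold and 3.28% ± 0.768 at room temperature, and Hnrnpdl 10.03% ± 0.662 in cold and 4.68% ± 0.665 at room temperature. The share of Hnrnpu was 6.76% ± 0.559 in cold and 6.58% ± 0.231 at room temperature, a difference within its spread. Hnrnpa0 thus took a smaller part of the pool in cold while Hnrnph1 and Hnrnpdl took larger ones, and the groups did not overlap for these 3 genes. Hnrnpa0 has no introns in the annotation, and per kilobase of exon its share was 5.06% ± 0.937 in cold and 12.02% ± 0.603 at room temperature. Hnrnpdl then made up 6.85% ± 0.538 in cold and 3.19% ± 0.432 at room temperature.

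Ratios between related members, which also cancel the scaling, were taken for 8 pairs chosen after their values were seen. Srsf1 over Srsf9 was 14.6, 14.6 and 18.2 in the cold libraries, against 5.92, 5.38 and 6.04 at room temperature. Hnrnph1 over Hnrnpf was 7.28, 8.70 and 7.69 in the cold libraries, against 1.64, 1.38 and 2.38 at room temperature. Hnrnpdl over Hnrnpd was 15.2, 15.96 and 14.99 in the cold libraries, against 4.89, 6.03 and 5.01 at room temperature. All 3 ratios were higher in every cold library, by 1.44, 2.17 and 1.54 on the log2 scale. The smallest shifts were those of Hnrnpa2b1 over Hnrnpa1 (0.41) and Srsf5 over Srsf6 (0.47). The groups did not overlap in any of the 8. The ratios are given as a description, since the pairs were chosen on these values. An exact permutation test gave p = 0.1 for each pair. This is the smallest p that 3 libraries against 3 allow, so the test could not decide.

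**Figure D4:**
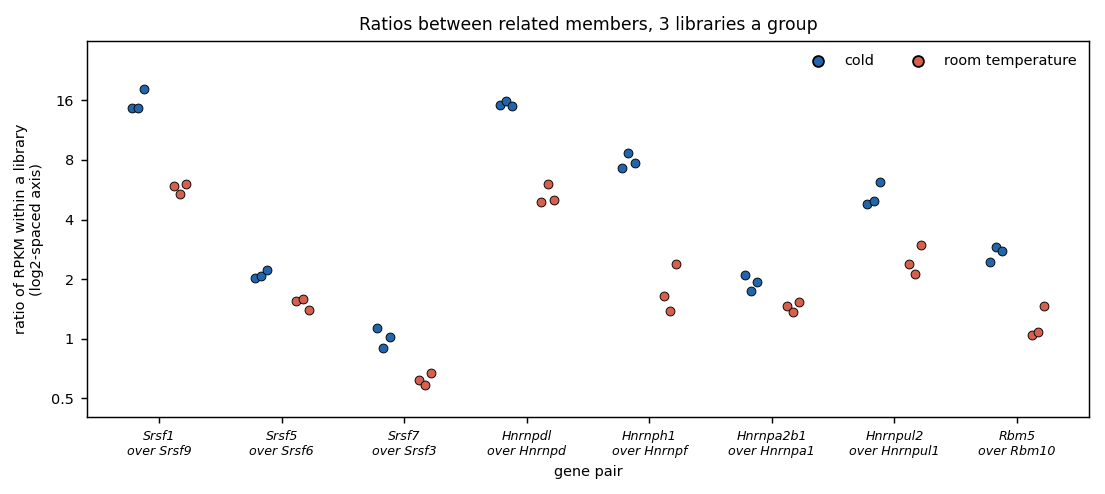
Ratio of the RPKM of related members within each library (y axis, log2-spaced) for 8 gene pairs, with cold libraries left of room temperature libraries. The cold points lie above the room temperature points in each pair, from Hnrnph1 over Hnrnpf (7.28 to 8.70 against 1.38 to 2.38) to Srsf5 over Srsf6 (2.02 to 2.21 against 1.40 to 1.59).

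Of the 11 tested RBM genes whose proteins act in or beside the spliceosome or exon junction, 6 rose and 1 fell, against the background of 35.5% and 35.0%. Rbm39, a U2AF-like splicing factor and transcription coactivator, had 7.19, 7.22 and 7.39 scaled RPKM in the cold libraries, against 2.78, 3.32 and 3.44 at room temperature (log2 change 1.20 ± 0.11 SE, limma adjusted p = 8.2e-05). Rbm5, a tumour suppressor that acts on exons of apoptosis genes, had 2.80, 2.96 and 2.91 scaled RPKM in the cold libraries, against 0.940, 1.06 and 1.43 at room temperature (log2 change 1.35 ± 0.15 SE, limma adjusted p = 0.00020). In both genes every cold library lay above the room temperature ones. Rbm25, which binds the U1 particle, had 2.67, 2.84 and 2.67 scaled RPKM in the cold libraries, against 1.56, 1.64 and 1.77 at room temperature (log2 change 0.72 ± 0.091 SE, limma adjusted p = 0.00032). Rbm48 and Rbm41, both of the minor spliceosome, rose by 0.92 and 0.69 (adjusted p = 0.00043 and 0.013), and Rbm6, a relative of Rbm5, by 0.71 (adjusted p = 0.0011). Rbm42 fell, with 2.79, 2.76 and 2.15 scaled RPKM in the cold libraries, against 5.58, 6.29 and 5.15 at room temperature (log2 change −1.13 ± 0.13 SE, limma adjusted p = 0.00023). Its span is almost wholly shared with the processed transcript Gm21982 on the same strand. Rbm10, also a relative of Rbm5, was not called (log2 change 0.16, adjusted p = 0.14) although its groups did not overlap. Rbm8a of the exon junction complex, Rbm17 and Rbm22 were not called either (adjusted p = 0.10 to 0.38), and Rbm8a2 was listed at 0 in 4 of the 6 libraries.

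Of the 6 RBM genes of RNA modification, decay and export, 4 rose and 0 fell. The 66.7% called is near the 70.5% of all genes, of which 35.5% rose. Rbm33, a partner of the RNA demethylase Alkbh5, had 0.647, 0.642 and 0.710 scaled RPKM in the cold libraries, against 0.221, 0.276 and 0.193 at room temperature (log2 change 1.53 ± 0.14 SE, limma adjusted p = 8.5e-05). Rbm26, which with Rbm27 links polyadenylated nuclear RNA to the exosome, had 0.641, 0.615 and 0.626 scaled RPKM in the cold libraries, against 0.269, 0.269 and 0.283 at room temperature (log2 change 1.18 ± 0.084 SE, limma adjusted p = 5.4e-05). For both the cold libraries stood apart from the room temperature libraries. Rbm7 of the nuclear exosome targeting complex rose by 0.43 (adjusted p = 0.0028), and Rbm27 by 0.53 (adjusted p = 0.013, or 0.052 without room temperature replicate 1). Rbm15, which brings the m6A methyltransferase to its targets, had 1.10, 1.29 and 1.35 scaled RPKM in the cold libraries, against 0.796, 0.753 and 1.21 at room temperature. Replicate 3 of the room temperature group lay within the cold range, and Rbm15 was called only without it (adjusted p = 0.0039), with the replicate number as a block (0.043) and with the deposited scaling on either value scale (0.015 and 0.021). With all 6 libraries it had 0.070. Rbm15b, its relative, had 5.88 ± 0.269 scaled RPKM in cold and 6.00 ± 0.213 at room temperature (mean ± SD, n = 3) and its span is shared in full with Manf.

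Rbm12b1 had the largest rise among RBM genes with at least 50 reads in every library. It had 1.45, 1.41 and 1.33 scaled RPKM in the cold libraries, against 0.343, 0.293 and 0.483 at room temperature (log2 change 1.73 ± 0.18 SE, limma adjusted p = 0.00014), and its neighbour and near copy Rbm12b2 had 2.12, 2.14 and 2.02 scaled RPKM in the cold libraries, against 0.676, 0.631 and 1.07 at room temperature (log2 change 1.36 ± 0.19 SE, limma adjusted p = 0.00052). How reads were split between such near copies is not stated, so both values are uncertain. Rbm4b, a splicing and translation regulator, rose by 0.83 (adjusted p = 0.00052) and its relative Rbm4 stood at a log2 change of 0.37 (adjusted p = 0.062). Rbm4, Rbm4b and Rbm14, a paraspeckle protein gene, share their spans with the protein-coding gene model Gm21992, so their values are uncertain. Rbm18 rose by 0.80 (adjusted p = 0.00059). Rbm43 fell, with 1.20, 1.18 and 1.26 scaled RPKM in the cold libraries, against 2.40, 2.84 and 1.99 at room temperature (log2 change −0.95 ± 0.14 SE, limma adjusted p = 0.00059). Rbm12, whose span lies within those of Cpne1 and Gm28036, and Rbm14 were not called (adjusted p = 0.89 and 0.68). Of the 3 nucleolar genes of ribosome assembly, Rbm19 fell (log2 change −0.77 ± 0.13 SE, limma adjusted p = 0.0014), and Rbm28 and Rbm34 were not called. Rbm28 had 1.01, 0.879 and 1.07 scaled RPKM in the cold libraries, against 0.548, 0.508 and 1.02 at room temperature, where replicate 3 of room temperature lies within the cold range. Without that library its log2 change was 0.85 (adjusted p = 0.00017). It was also called with the replicate number as a block (0.030) and under the deposited scaling (0.031).

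Of the 6 tested tissue-restricted RBM genes 1 rose and 3 fell, and the share called, 66.7%, is again near the 70.5% of all genes. Rbm24, a splicing regulator of heart and skeletal muscle, had 0.388, 0.350 and 0.328 scaled RPKM in the cold libraries, against 1.70, 1.61 and 1.59 at room temperature (log2 change −2.09 ± 0.11 SE, limma adjusted p = 4.9e-05). All 3 cold libraries lay below room temperature, and those at room temperature lay close together. Of 9 cardiomyocyte markers 8 fell and 0 rose, and their summed level was 53.6, 23.2 and 38.97 scaled RPKM in the cold libraries, against 369.8, 103 and 359 at room temperature. Room temperature replicate 2 had the lowest such sum of its group, and an Rbm24 level between those of the other 2. Smooth muscle markers summed to 55.6, 34.1 and 48.2 scaled RPKM in the cold libraries, against 264, 213 and 216 at room temperature. Rbm20, the regulator of titin splicing in heart muscle, stood at 0.0151, 0.00717 and 0.0134 scaled RPKM in the cold libraries, against 0.0206, 0.0129 and 0.0220 at room temperature (log2 change −0.56, adjusted p = 0.11), with replicate 2 lowest in each group. It was called with the replicate number as a block (adjusted p = 0.028) and without room temperature replicate 2 (0.030). The part of muscle cells in these 2 results was not tested.

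Rbm47, a splicing factor and RNA editing cofactor of epithelia, had 0.124, 0.167 and 0.132 scaled RPKM in the cold libraries, against 0.381, 0.352 and 0.325 at room temperature (log2 change −1.31 ± 0.13 SE, limma adjusted p = 0.00012). The groups were separated. Ciliated cell markers summed to 115, 108 and 85.6 scaled RPKM in the cold libraries, against 449, 578 and 377 at room temperature, while 8 of 11 alveolar type 1 and 8 of 11 alveolar type 2 markers rose. Of the epithelial splicing factors outside these families, Esrp1 had a log2 change of −1.55 (adjusted p = 6.8e-05) and Esrp2 of 0.43 (adjusted p = 0.0091). Rbm46, known from germ cells, had the other extreme at 0.0444, 0.0600 and 0.0626 scaled RPKM in the cold libraries, against 0.00572, 0.00351 and 0.0157 at room temperature (log2 change 1.73 ± 0.25 SE, limma adjusted p = 0.00057), from 5.73 to 96.5 reads per library. Its room temperature replicate 3 lay nearest to cold. Rbm46 passed the filter on low reads only through the cold libraries, where it is high, so its call is no separate support for the rise. Rbm45 had a log2 change of −0.36 (adjusted p = 0.044), which became −0.047 (0.78) under the deposited scaling and was not called without room temperature replicate 1 or cold replicate 1 or 2 (0.12, 0.14 and 0.18). Rbm38, a regulator of p53 targets, was not called (0.18). Rbm11 was listed at 0.0187, 0.0152 and 0.0116 scaled RPKM in the cold libraries, against 0.0721, 0.103 and 0.0210 at room temperature and Rbm44 at 0 to 0.0036, and neither was tested. The part of epithelial cells in the Rbm47 result was not tested.

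**Figure D5:**
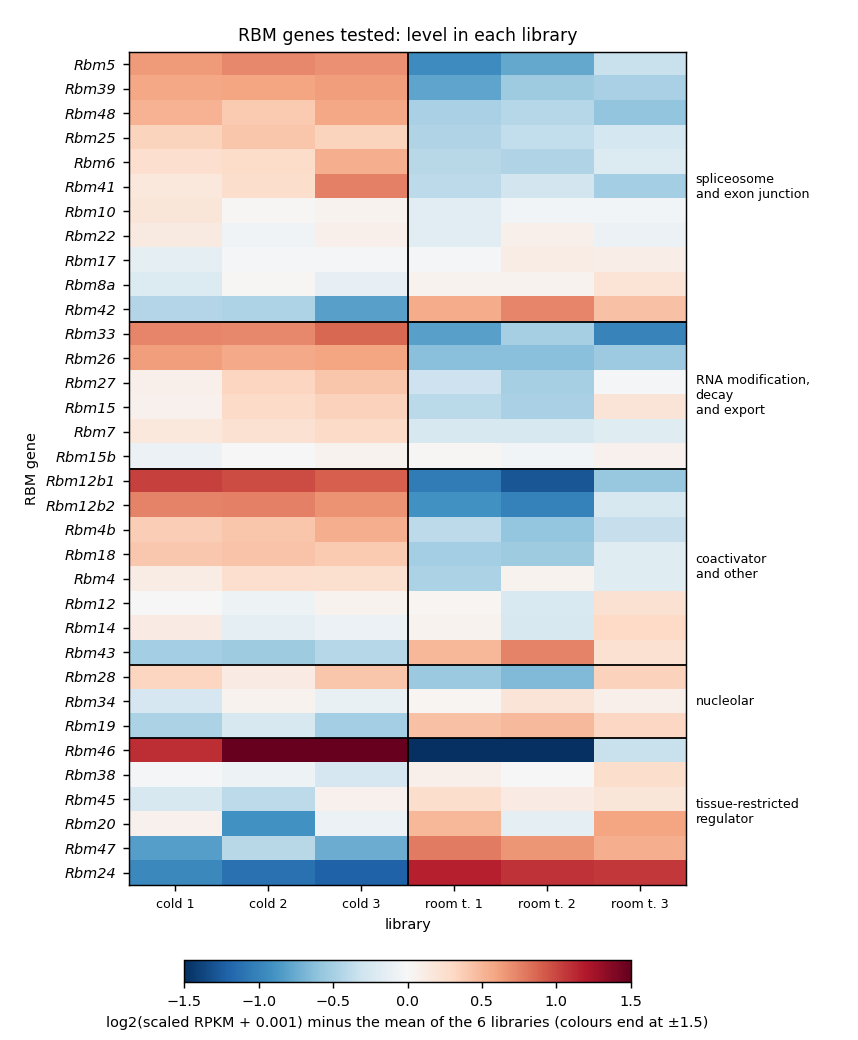
Level of the 34 tested RBM genes in each library as log2(scaled RPKM + 0.001) minus the gene's mean over the 6 libraries (colour, ending at ±1.5), in the role classes named at the right. Cold libraries are red for Rbm46, Rbm12b1, Rbm33 and Rbm5 and blue for Rbm24 and Rbm47, and room temperature replicate 3 is paler than its group in many rows.

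Of the 43 called members, 31 had room temperature replicate 3 as the library of its group nearest to the cold mean, 12 had replicate 2 and 0 had replicate 1. The same count was not made over all genes. On their first principal component replicate 3 also lay nearest to cold (−43.96), so this nearness is not particular to the members. Without replicate 3, 32 members were called higher and 12 lower, against 31 and 12 with it. Over all genes, 5448 were higher and 5413 lower of 15054 tested without it, against 5412 and 5335 of 15238 with it. For SR genes the counts without it were 9 and 1, the same as with the library that stood apart. The marker sums of endothelium at room temperature were 17.9, 8.10 and 84.9 scaled RPKM in replicates 1, 2 and 3, and those of club and secretory cells 24147, 25801 and 18778.

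The lists that follow are read against the 35.5% of all genes that rose and the 35.0% that fell. Of the kinases and import receptors of SR proteins 9 rose and 1 fell of 14 tested (median log2 change 0.57). Clk1, Clk4 and Clk2, nuclear kinases of the SR tail, rose by 2.61, 2.01 and 1.42 on the log2 scale, with Clk1 at 17.3, 15.6 and 15.3 scaled RPKM in the cold libraries, against 1.94, 2.40 and 3.74 at room temperature. Dyrk1b, a related kinase, fell, with a log2 change of −1.48. Among SR-related proteins 22 rose and 4 fell of 31 tested (median log2 change 0.73), and the smallest p belonged to the speckle protein gene Srrm2 (1.97), to Pnisr (2.27) and to the U1-associated Luc7l2 (1.40). Sap18 (−0.77), Rsrc1 (−0.47) and Rnps1 (−0.40) fell, the last 2 not called under the deposited scaling (adjusted p = 0.23 and 0.52). These lists, like the members, were described by counts and not tested as sets.

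Of the core spliceosome subunits 8 rose and 22 fell of 53 tested (median log2 change −0.15). Under the deposited scaling this list turned to 19 higher and 16 lower, with a median of 0.18, against 46.2% and 24.7% of all genes. The branch-site factor Sf3b1 rose by 1.14, as did the helicase Ddx46 (0.57) and the U1 protein Snrnp70 (0.71), while Sf3b4 (−1.95), Snrpc (−1.20) and Sf3b2 (−0.97) fell. Among other splicing regulators 28 rose and 15 fell of 53 tested (median log2 change 0.43), with Tial1 (1.42), Rbms2 (1.51) and Sugp2 (1.22) higher and Esrp1 (−1.55), Pcbp1 (−1.09) and Khdrbs1 (−0.95) lower. Of the nonsense-mediated decay factors 5 rose and 5 fell of 18 tested (median log2 change −0.047), and under the deposited scaling 7 were higher and 3 lower (median 0.27). Smg1, the kinase of that pathway, rose by 1.56 and Upf3b by 0.64, and Nbas (−1.38), Dhx34 (−0.75) and Eif4a3 (−0.66) fell. Each gene named in these 2 paragraphs had a limma adjusted p of at most 0.0078.

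Rbm3, the cold-inducible RBM gene left out of the set, was not called at 9.86, 13.7 and 9.17 scaled RPKM in the cold libraries, against 11.6, 13.8 and 11.9 at room temperature (log2 change −0.20, or 0.12 under the deposited scaling; adjusted p = 0.29 and 0.52). Cirbp, its cold-inducible relative, had 5.10, 7.11 and 4.78 scaled RPKM in the cold libraries, against 8.30, 10.1 and 6.81 at room temperature (log2 change −0.57 ± 0.19 SE, limma adjusted p = 0.030, or 0.24 under the deposited scaling).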

How the data were processed

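Libraries were prepared with a NEBNext Ultra II kit, per the labels' protocols, and the build was mm10, per the submitters' processing notes. Not given in the sources used here: aligner, counter, annotation and strand. Values in the deposited table are RPKM, computed by the authors for each gene in each library. Value times GENCODE M21 gene span (GRCm38) fell on whole read numbers for 83.2% to 86.3% of low values within 0.1, and value times exon length for 37.03% to 41.4%. The deposited log2 fold change is that of the authors' group means plus 0.001 in all 18174 rows. Their deposited p-value and q-value come from a test that the labels do not name. Other per-sample columns number 0.

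The design foresaw RPKM. limma 3.58.1 in R 4.3.3 (trend and robust options, group as the only term) was fitted to log2(scaled RPM + 0.5) over all 15238 genes with 10 reads in the median library in at least 3 libraries and 15 reads in all, two-sided, with Benjamini-Hochberg adjustment and a threshold of 0.05. RPM is RPKM times span in kilobases, scaled by trimmed means of M values without weights. For low genes the pseudocount shrinks the log2 change. Means and SDs use scaled RPKM. Of the rows, 92 lacked a span. The procedure was tested on simulated data in which few genes changed, with even odds upward and downward. That test does not check the composition scaling under the wide change seen here. Alternatives were scaling, value scale, pseudocount, filter, voom, a replicate block and each library left out, and members that another gene covers over 50% of the span were left out in an alternative chosen after seeing the data.

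Replicates were compared on recovered reads. Chi-square per degree of freedom ran between 15.9 and 88.3, above sampling noise for each pair. Deviations from the group means correlated at 0.115, 0.149 and 0.155 between same-numbered libraries of the 2 groups, across genes. Between differently numbered libraries of the 2 groups the correlations ran from −0.206 to 0.0641. Deviations within a group cancel, so these correlations are not independent. Each same-numbered value is above 0.1, so a fit with the number as a block was run as an alternative. Every member may be named. Values by library are given by rule for SR genes, for the called genes with the 3 smallest p per direction in the hnRNP family and each RBM class, and for the largest changes and highest levels of a family. Values by library of other members were chosen after they were seen. Other lists give up to 3 called genes per direction by p, and 1 such gene is not reported here. Members and lists were chosen with earlier results of these data known.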

Additional observations from a re-analysis of the deposited data

How the results depend on the processing

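Of the 43 called members, 34 were called in the same direction under each of the 15 alternatives, 36 under each of the 6 fits that leave out a library, and 0 reversed. SR counts stayed at 9 higher and 1 lower except 8 higher under upper-quartile scaling and without members covered by another gene, and 6 to 9 higher with a library left out. hnRNP counts became 13 higher and 3 lower under the deposited scaling and on log2(deposited RPKM + 0.01). Medians under these 2 settings were 0.62 and 0.62 for all members, 1.02 and 1.02 for SR, 0.34 and 0.34 for hnRNP, and 0.71 and 0.74 for RBM genes. These settings omit the composition factor, which moves all genes by about the same amount. The RBM median was 0.16 with no filter, which adds 3 low genes. With a library left out, medians ran from −0.035 to 0.070 for hnRNP and from 0.28 to 0.46 for RBM genes. Log2 changes that turned positive under the deposited scaling and on log2(deposited RPKM + 0.01), all of members not called, were Rbm15b 0.29 and 0.30, Rbm14 0.24 and 0.25, Rbm12 0.29 and 0.30, Rbm34 0.12 and 0.12, Rbm8a 0.12 and 0.12, Rbm17 0.20 and 0.20, Rbm38 0.094 and 0.099, Hnrnpa3 0.14 and 0.14, Hnrnpa1 0.20 and 0.20, Hnrnpu 0.32 and 0.33, Hnrnpl 0.25 and 0.25 and Hnrnpk 0.26 and 0.26. Members not called that changed sign when a library was left out ranged as follows: Hnrnpl −0.15 to 0.0021, Hnrnpll −0.026 to 0.074, Hnrnpm −0.012 to 0.13, Hnrnpu −0.046 to 0.066, Rbm12 −0.16 to 0.057, Rbm14 −0.23 to 0.026 and Rbm15b −0.074 to 0.029. Hnrnpu was 0.0065 with the stricter filter and Hnrnpll −0.0022 under upper-quartile scaling. With the replicate block 33 members were higher and 13 lower, against 31 and 12, the additions being Rbm15, Rbm28 and Rbm20. The cause of the changes with a library left out was not tested.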

Other observations

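The deposited RPKM divides reads by gene span, so introns lower it. Values per kilobase of exon treat all reads of a gene as exonic, and whether intron reads were counted is not stated. Per kilobase of exon the mean level over the 6 libraries was 37.6 for Hnrnpf, against 4.52 per kilobase of span, and 24.8 for Rbm39, against 5.22. Srsf5 (58.3) and Srsf1 (51.9) led the SR genes on either scale. Among hnRNP genes Hnrnpa2b1 (52.8), Hnrnpab (52.4) and Hnrnpa3 (51.6) led per kilobase of exon, and Hnrnpa0, a gene without introns in this annotation, led per kilobase of span. Fold changes of a gene do not depend on this choice.

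Across the 64 tested members Pearson's r of the log2 change with the log2 span was 0.0050, with the exon part of the span 0.16 and with the mean level 0.0084. Across all 15238 genes tested these were 0.11, −0.038 and −0.12. These are descriptions across genes, which share the 6 libraries and their depth.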
